A study of Mus musculus with 15 samples.

Results

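The compounds compared were 13-HDHEA and 16-HDHEA, positional isomers of hydroxydocosahexaenoyl ethanolamide that differ in the carbon that carries the hydroxyl group. Their effect on gene expression was set side by side in RAW264.7 cells, a mouse macrophage-like line that grows as an adherent culture and is widely used to study inflammation. The members were the 3 arrays labelled LPS with 13-HDHEA and the 3 arrays labelled LPS with 16-HDHEA, 6 of the 15 arrays in all. Both isomers were given at 5.0 µM in 0.1% ethanol for 30 min before LPS was added at 1.0 µg/mL, and the cells were harvested after 24 h. The other groups, also of 3 arrays each, were cells without LPS and cells with LPS, both given the ethanol vehicle only, and cells with LPS and both isomers at 2.5 µM each. Each of the 3 replicate numbers stands for 1 experiment with all 5 groups, so that the arrays were paired by experiment.

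LPS, a glycolipid from the surface of gram-negative bacteria, is sensed by Toll-like receptor signalling in macrophages and switches on cytokines, chemokines, the prostaglandin-forming enzyme COX-2 and, through type I interferon, interferon-stimulated genes. Docosahexaenoyl ethanolamide is an N-acyl ethanolamine, the class of fatty acid amides to which anandamide belongs. COX-2 can oxygenate it, and 13-HDHEA and 16-HDHEA are products of that reaction. N-acyl ethanolamines are formed and broken down by enzymes such as Napepld and Faah, and members of the class are ligands of cannabinoid receptors, of the lipid-sensing nuclear receptors called PPARs or of other receptors.

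Expression was measured on whole-transcript arrays and is given as log2 values, so that 1 unit is a 2-fold step. The 15 arrays had medians between 3.62 and 3.69 over all probe sets. A gene was represented by 1 probe set and was tested where at least 3 arrays lay above their own 40th percentile, a level between 3.16 and 3.22, which left 15468 of 22180 genes. All 16 macrophage markers tested lay above that level on all 6 isomer arrays, as did 6 of 8 osteoclast, 7 of 8 epithelial and endothelial, 4 of 8 fibroblast, 3 of 6 neutrophil and 1 of 4 lymphocyte markers, so that passing it does not mark a cell type. A gene was called where limma's adjusted p was under 0.05. Levels of different genes were not compared, since probes differ in brightness.

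Between the isomers 1 gene was called. Mnd1, whose product forms a complex with Hop2 that acts in meiotic homologous recombination, was lower with 13-HDHEA than with 16-HDHEA. With 13-HDHEA its log2 values were 3.13, 2.79 and 2.85 in experiments 1, 2 and 3. With 16-HDHEA they were 3.88, 4.10 and 4.10. All 3 arrays of 13-HDHEA lay below all 3 of 16-HDHEA, and the gap within an experiment was -0.75, -1.32 and -1.25.

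The mean difference in Mnd1 was -1.11 on the log2 scale (SE 0.127, 95% interval -1.38 to -0.83, n = 3 and 3, limma adjusted p = 0.0102), and with the experiment as a block the adjusted p was 0.0364. This was 1 call among 15468 genes, or 0.00646%, and no gene was called higher with 13-HDHEA. Mnd1 lay below the array's 40th percentile on all 3 arrays of 13-HDHEA, with a group mean at percentile 33.0, and at percentile 56.4 with 16-HDHEA. Measured against the mean 40th percentile of the 13-HDHEA arrays, the level with 13-HDHEA was at least 1.77-fold lower. Mnd1 is measured by a single probe set on this array, and RefSeq places the gene on the minus strand of chromosome 3 of GRCm38.p6.

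The other groups show where the gap lay. Mnd1 was 5.35 ± 0.167 (SD, n = 3) without LPS and 4.28 ± 0.128 with LPS and vehicle, a difference of -1.07 with LPS (limma adjusted p = 1.63e-05). Against that vehicle the level fell further with 13-HDHEA (limma adjusted p = 0.00091). It was at least 2.10-fold lower against the mean 40th percentile, with a measured difference of -1.35 that includes values below that percentile, while the difference with 16-HDHEA was -0.25 (-0.52 to 0.03, adjusted p = 1.00). Both of these differences use the same 3 vehicle arrays. With both isomers at the lower dose of 2.5 µM each, Mnd1 was 3.86, 4.10 and 4.23, values given beside the others without a comparison because the doses differ.

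The call rested on few arrays. It was lost when only the 6 isomer arrays were fitted (limma adjusted p = 0.241, and 0.916 with the experiment as a block). It was also lost without experiment 1, 2 or 3 (0.0677, 0.977 and 0.982). With all 27512 probe sets of the array past the level filter tested, the adjusted p was 0.0606. Leaving out replicate 2 or 3 of 13-HDHEA (0.0860 and 0.108) or of 16-HDHEA (0.112 and 0.109) lost the call as well. The difference stayed between -1.28 and -0.999 in these and the other settings without an array or an experiment. The deposited Mnd1 value 4.10 was identical to the last digit on 3 arrays, replicates 2 and 3 of 16-HDHEA and replicate 2 of the combined treatment. Such repeats were common in the file, since 2655 of the 15468 genes (17.2%) had a value that appeared on 3 or more of the 15 arrays, and the part of these repeats in the small spread of Mnd1 was not tested.

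**Figure D1:**
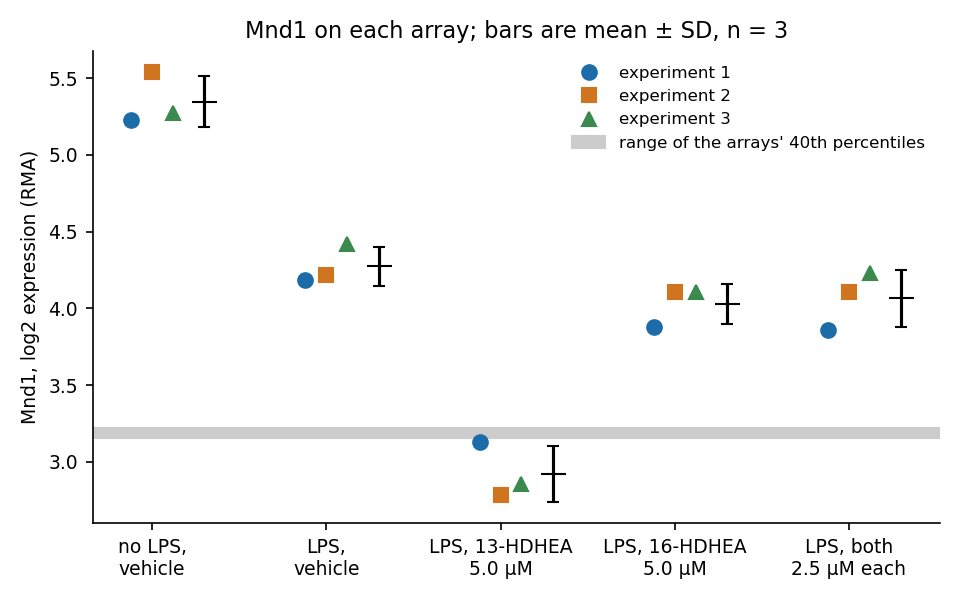
Mnd1 log2 expression (vertical axis) on each of the 15 arrays by group, with a symbol for each experiment, the mean ± SD of 3 arrays beside the points, and a grey band for the arrays' 40th percentiles (3.16 to 3.22). The 3 arrays of 13-HDHEA lie between 2.79 and 3.13, below the band, and the 3 arrays of 16-HDHEA lie between 3.88 and 4.10, above it.

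No other gene of the homologous recombination list was called. Of the 14 tested in that list, 13 were called lower with LPS, while between the isomers 8 had a lower mean with 13-HDHEA and the median was -0.02, beside -0.01 over all genes tested. The gene for the partner Hop2, Psmc3ip, read after its values were known, was 5.62, 6.01 and 5.84 with 13-HDHEA and 5.49, 5.81 and 5.82 with 16-HDHEA, a difference of 0.12 (95% interval -0.16 to 0.40). Its values were slightly higher with 13-HDHEA in each experiment, and the groups overlapped.

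Across all genes the differences between the isomers were small. The median absolute difference between them was 0.0706 log2 units, and 95% of genes differed by less than 0.291. For 15294 of the 15468 genes (98.9%) the 95% interval of the difference lay within 1 log2 unit either way, and for 12031 (77.8%) it lay within 0.5. These intervals are for single genes and are not adjusted for their number. They bound the size of a difference and do not show that the isomers act alike. For comparison, LPS alone against no LPS gave a median absolute difference of 0.199, with 1020 genes apart by at least 1 log2 unit. Between the isomers 2 genes reached that size as measured, Mnd1 and the olfactory receptor gene Olfr887. The latter, named after its value was seen, was 3.72 ± 0.0540 with 13-HDHEA and 2.60 ± 0.221 with 16-HDHEA (SD, n = 3) but was not called (limma adjusted p = 1.00). All 3 arrays of 16-HDHEA lay below the 40th percentile for Olfr887, as did its means with vehicle (2.73) and without LPS (2.86). Its 3 arrays of 13-HDHEA were enough to pass the level filter. For both genes the measured difference includes values near background, so a 2-fold step is not shown.

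**Figure D2:**
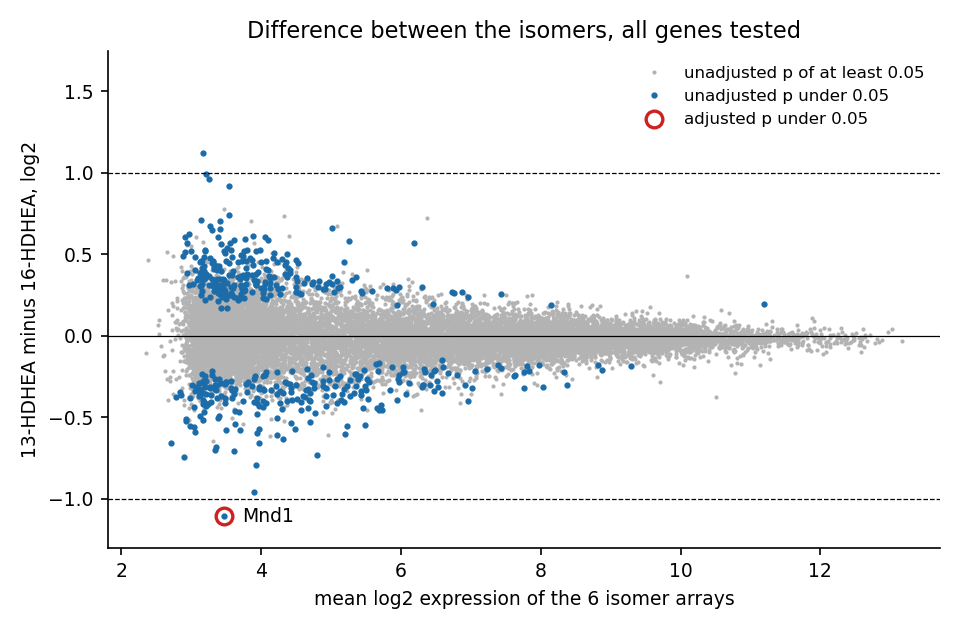
Difference between the isomers (13-HDHEA minus 16-HDHEA, log2, vertical axis) against the mean log2 expression of the 6 isomer arrays (horizontal axis) for the 15468 genes tested; blue points have an unadjusted p under 0.05 and the red ring marks the gene with an adjusted p under 0.05. The spread is widest at levels under about 4 and narrows with the level, and Mnd1 lies at -1.11.

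Few genes separated the isomers on all arrays. An unadjusted p under 0.05 was reached by 480 genes (3.10%), 243 higher and 237 lower with 13-HDHEA. In 554 genes (3.58%) all 3 arrays of 13-HDHEA lay below all 3 of 16-HDHEA, and in 466 (3.01%) all 3 lay above. An exact permutation test of 3 against 3 arrays cannot give a p below 0.1, so single genes were judged only by the model over all genes. Complete separation in either direction has that same probability, 0.1, when arrays are placed in the groups at random. The counts of separated genes therefore do not mark single genes as different. Since 1 pair of compounds was compared, no further adjustment over pairs was needed. The replicates came from 3 separate experiments with 1 array per group in each. The p-values of the main fit rest on the spread between these experiments within a group, shared over all 5 groups. They do not measure how the gap between the paired isomer arrays varied.

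The isomers were closer to each other within an experiment than the arrays of either isomer were between experiments. Taking as a distance the SD over genes of the log2 difference between 2 arrays, 13-HDHEA and 16-HDHEA were 0.244, 0.251 and 0.221 apart in experiments 1, 2 and 3. Arrays of 13-HDHEA from different experiments were between 0.270 and 0.281 apart, and arrays of 16-HDHEA between 0.253 and 0.288. An array of 13-HDHEA and one of 16-HDHEA from different experiments were between 0.250 and 0.282 apart, which overlapped both of these ranges. The distance from 13-HDHEA to vehicle in the same experiment was between 0.238 and 0.271, and from 16-HDHEA to vehicle between 0.235 and 0.242. The step from no LPS to LPS was between 0.623 and 0.639. So within an experiment the distance between the isomers overlapped the distances of the isomers to vehicle and lay below every distance between experiments within an isomer. Across experiments the isomers were about as far apart as arrays of the same isomer.

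**Figure D3:**
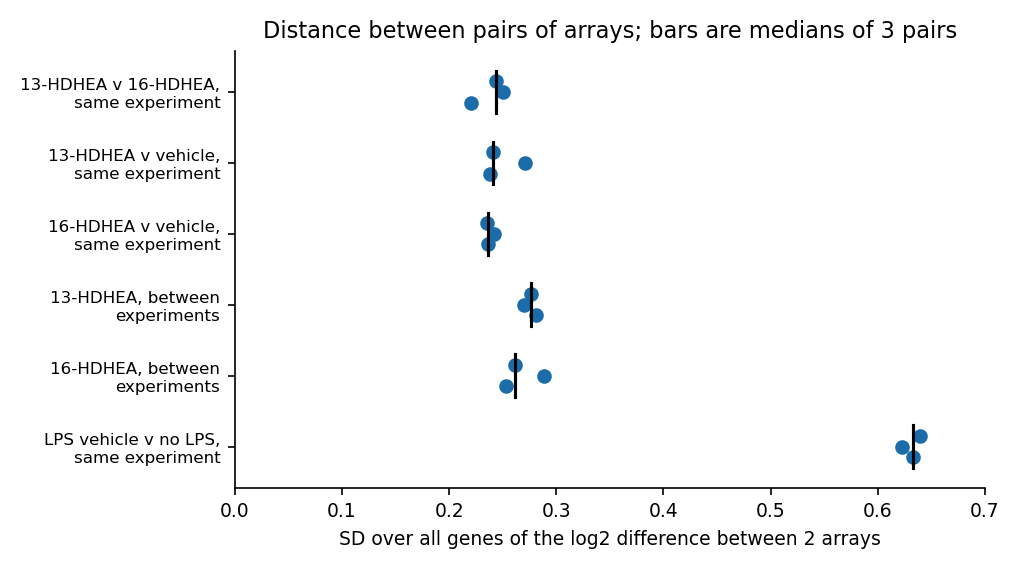
Distance between pairs of arrays (horizontal axis: SD over all genes tested of the log2 difference between 2 arrays), with 1 point per pair and a bar at the median of 3 pairs. The isomers of 1 experiment lie between 0.221 and 0.251 apart, and LPS vehicle and no LPS between 0.623 and 0.639.

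Against vehicle with LPS, Mnd1 was the only gene called with 13-HDHEA, again 1 of 15468 (0.00646%), and 660 genes had an unadjusted p under 0.05. With 16-HDHEA limma called 0 genes, with or without the experiment as a block, and 460 had an unadjusted p under 0.05. The smallest adjusted p with 16-HDHEA was 0.683, for Cypt12, a gene named after its value was seen. In the same fit, the vehicle arrays with LPS differed from the arrays without LPS in 4616 genes, of which 2089 (13.5%) rose and 2527 (16.3%) fell. The median absolute difference from vehicle was 0.0799 with 13-HDHEA and 0.0731 with 16-HDHEA.

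None of the genes ranked next after Mnd1 by p was called. They are described as a ranking among genes with the same sign in all 3 experiments, a property of 3795 genes (24.5%). For Zfp773, C4bp, Aipl1, Septin12 and Cyp2r1 all arrays of 1 isomer lay below the 40th percentile, so that their differences include values near background. As bounds on the group means, the first 4 differed by at least 1.28-fold, 1.40-fold, 1.18-fold and 1.12-fold. These bounds leave out the spread of the arrays, and none of the 4 genes was called, so they are not established differences. No bound can be given for Cyp2r1, since its mean with the other isomer lay below that level as well. Ccl28 with 16-HDHEA, and Ppp1r32 and Hemgn with 13-HDHEA, also had a mean below the mean 40th percentile of the group's arrays. Their differences include values near background too. A further 2 predicted, RNA or receptor-cluster genes at the higher end and 4 at the lower end were passed over.

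Zfp773, a zinc finger gene, had the second smallest adjusted p (0.433, and 0.167 with the experiment as a block, by limma). Its log2 values were 3.56, 3.61 and 3.44 with 13-HDHEA and 3.05, 3.08 and 3.09 with 16-HDHEA, a difference of 0.46 (95% interval 0.29 to 0.63). The groups did not overlap, and all 16-HDHEA arrays lay below their 40th percentile. The level was 4.73 ± 0.0324 without LPS and 3.23 ± 0.116 with LPS and vehicle (SD, n = 3), and the latter lay between the isomers.

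Among the other genes with higher values with 13-HDHEA, Ccl28, a chemokine of mucosal tissues, was 3.83, 3.65 and 3.81 against 2.92, 3.36 and 2.89 with 16-HDHEA, a difference of 0.71 (0.36 to 1.06). Npnt, which encodes the matrix protein nephronectin, differed by 0.59 (0.30 to 0.88), with 3.89, 3.95 and 3.89 against 3.36, 3.08 and 3.53. Fam166a differed by 0.59 as well, and its vehicle mean of 3.39 lay near the 16-HDHEA mean of 3.47. The order was the other way for Ppcs, an enzyme of coenzyme A synthesis, where the vehicle mean of 4.51 lay near the 13-HDHEA mean of 4.41 and 16-HDHEA was at 3.93. The remaining differences were 0.51 for the immunoglobulin-like receptor gene Ildr2, 0.46 for Adamtsl4, 0.45 for the centromere protein gene Cenpv, 0.42 for Espnl and 0.41 for Fxyd7, a regulator of the sodium pump. In all of these the adjusted p was 1.00 and the arrays of the isomers did not overlap.

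Among genes with lower values with 13-HDHEA, the zinc finger gene Zfp943 was 4.47, 4.37 and 4.47 with 13-HDHEA and 5.33, 5.17 and 4.99 with 16-HDHEA. Its difference was -0.73 (95% interval -1.08 to -0.37), and the vehicle mean of 4.78 lay between the isomers. C4bp, which encodes a protein that binds complement C4b, was 2.95, 2.95 and 3.07 against 3.61, 3.84 and 3.61, a difference of -0.70 (-1.03 to -0.37). All 3 arrays of 13-HDHEA lay below the 40th percentile for this gene, and all 3 of 16-HDHEA above it. Ms4a4a, a membrane protein gene expressed by macrophages, rose with LPS alone from below the 40th percentile (at least 1.34-fold, measured means 2.55 without and 3.59 with LPS, limma adjusted p = 0.00067) and was 3.35, 3.23 and 3.21 with 13-HDHEA against 3.57, 4.40 and 3.92 with 16-HDHEA. That difference was -0.70 (-1.11 to -0.30, adjusted p = 1.00).

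Cyp2r1, a vitamin D hydroxylase gene, was 2.44, 2.38 and 2.32 with 13-HDHEA and 3.55, 2.84 and 2.73 with 16-HDHEA. The measured difference was -0.66, and -0.40 without replicate 1 of 16-HDHEA, the highest array. That array was the only 1 of the 6 above its 40th percentile, so the difference lies mostly among values near background. The remaining differences were -0.52 for Ppp1r32, a regulatory subunit gene of protein phosphatase 1, -0.51 for the erythroid gene Hemgn, -0.44 for Slc2a4, the insulin-responsive glucose transporter, -0.42 for Septin12 and -0.42 for Aipl1, a chaperone of photoreceptors. None of these was called, and each had an adjusted p of 1.00.

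**Figure D4:**
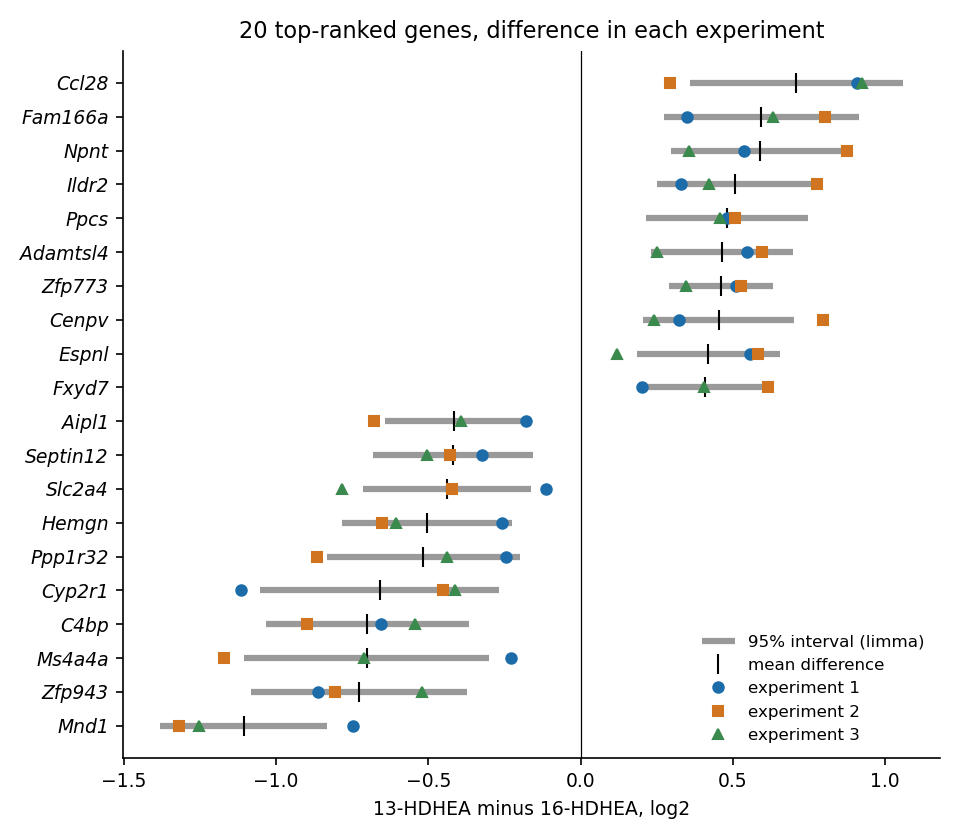
Difference between the isomers (13-HDHEA minus 16-HDHEA, log2, horizontal axis) for Mnd1 and the 19 other top-ranked genes, with a symbol for each experiment, a tick at the mean and a grey bar for the 95% interval from limma. All points of a gene lie on 1 side of 0 because the ranking required it; Mnd1 lies farthest from 0 at -1.11.

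Tnf, Il1b and Ptgs2, which LPS raised, had nearly the same level with both isomers. Tnf, a cytokine made early in the response, was 12.52, 12.42 and 12.40 with 13-HDHEA and 12.52, 12.48 and 12.42 with 16-HDHEA. Il1b, another cytokine of the acute response, was 12.36, 12.28 and 12.41 against 12.41, 12.31 and 12.41. Ptgs2, which encodes COX-2, was 12.45, 12.26 and 12.32 against 12.50, 12.35 and 12.31. In each of these the arrays overlapped, and the differences were -0.02 (95% interval -0.21 to 0.16), -0.03 (-0.24 to 0.19) and -0.04 (-0.37 to 0.28).

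Nos2, the inducible nitric oxide synthase gene, was 9.32, 9.10 and 9.17 with 13-HDHEA and 9.32, 9.11 and 9.14 with 16-HDHEA, a difference of 0.01 (-0.44 to 0.45). The interval uses the spread of all 5 groups, which for this gene reached an SD of 0.462 with the combined treatment. Ccl2, a monocyte-attracting chemokine, differed by 0.05 (-0.13 to 0.22), Hmox1, an enzyme of haem breakdown, by 0.01 (-0.27 to 0.29) and Il1rn, the natural antagonist of interleukin-1, by -0.05 (-0.46 to 0.36). The 5 genes with the largest measured rise with LPS alone were above the 40th percentile without LPS in 3 cases, Il1b, Saa3 and Lcn2, which rose by 8.92, 8.84 and 7.17 log2 units. Il1a and Il6 lay below it, and their means rose by at least 8.89 and 7.65. The 5 genes, in the order Il1a, Il1b, Saa3, Il6 and Lcn2, differed between the isomers by -0.11, -0.03, -0.02, -0.18 and -0.09. The 5 with the largest fall, Map2k6, Cxcr4, Ighm, Rasgrp3 and Ccnb2, differed by -0.12, 0.01, 0.00, -0.06 and -0.06.

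Small differences of the cytokine list ran mostly one way, without a call. Of 19 pro-inflammatory cytokine genes tested, 15 rose with LPS alone, and 17 had a lower mean with 13-HDHEA than with 16-HDHEA. The median was -0.11, and 10 were lower in each of the 3 experiments, beside 8386 of 15468 genes (54.2%) with a lower mean and 2140 lower in each experiment. Il6 was 10.67, 10.47 and 10.74 with 13-HDHEA and 10.85, 10.67 and 10.90 with 16-HDHEA. The gap within the experiments was -0.18, -0.20 and -0.16, the groups overlapped, and the mean difference of -0.18 (95% interval -0.46 to 0.10) was not called (limma adjusted p = 1.00). Il12b, a subunit of interleukin-12 named after its value was seen, gave the list's lowest difference, -0.45 (-1.18 to 0.27). In no gene of the list did the arrays of the isomers separate, and without replicate 1 of 16-HDHEA 11 of the 19 had a lower mean with 13-HDHEA. The list medians within experiments 1, 2 and 3 were -0.10, -0.13 and -0.03.

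Interferon-stimulated genes also leaned to lower means with 13-HDHEA, and none was called. Of 28 tested, 27 rose with LPS, 22 had a lower mean with 13-HDHEA and the median was -0.07. Ifit1, an antiviral RNA-binding protein gene, was 8.80, 9.32 and 9.73 with 13-HDHEA and 9.04, 9.57 and 9.73 with 16-HDHEA. It varied more between experiments than between the isomers, whose difference was -0.17 (95% interval -0.74 to 0.41). Cmpk2, a mitochondrial nucleotide kinase gene, differed by -0.19 (-0.74 to 0.35) and Rsad2, which encodes the antiviral enzyme viperin, by -0.08 (-0.70 to 0.55). Mx1 had the lowest difference of the list, -0.23 (-0.82 to 0.36), with overlapping arrays. In 1 of the 28, a share like the 3.58% of all genes, all 13-HDHEA arrays lay below all 16-HDHEA arrays. This was Oasl1, at 9.55, 9.59 and 9.58 against 9.69, 9.83 and 9.67, a difference of -0.15 (limma adjusted p = 1.00). The count with a lower mean lay between 16 and 27, and the median between -0.13 and -0.01, when 1 array was left out. The median was 0.03 in experiment 1 and -0.15 and -0.07 in experiments 2 and 3.

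Of 16 antigen presentation and costimulation genes 14 had a lower mean with 13-HDHEA, at a median of -0.05, and 11 to 13 when 1 array was left out, with the median at -0.01 without replicate 2 of 16-HDHEA and at -0.09 without its replicate 1. Psmb9, a subunit of the immunoproteasome, was 7.25, 7.43 and 7.48 against 7.53, 7.57 and 7.63 with 16-HDHEA, a difference of -0.19 (-0.43 to 0.04) with no overlap and no call. Tapbp, which loads peptides onto MHC class I, differed by -0.09.

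Genes that LPS raised most leaned the same way by a small amount. Of 498 genes called and at least 2-fold higher with LPS, 351 (70.5%) had a lower mean with 13-HDHEA, with a median of -0.05. All 13-HDHEA arrays lay below all 16-HDHEA arrays in 14 of them (2.81%), under the 3.58% of all genes, and above in 1 (0.201%, beside 3.01%). Of 519 genes called and at least 2-fold lower with LPS, 282 (54.3%) had a lower mean, with a median of -0.01. Among the 10852 genes not called with LPS the share was 52.5%. With each array centred on its median, the share of all genes lower with 13-HDHEA was 49.8% and that of the genes raised 2-fold by LPS was 67.7%. The medians of the raised genes were -0.06, -0.07 and -0.0047 in experiments 1, 2 and 3, and 300 to 346 of them were lower when 1 array was left out. Since these genes were measured in the same 6 arrays, their counts are not independent of each other, and the 498 genes were chosen on other arrays of the same experiments.

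Chemokines were split between the isomers. Of 19 tested, 14 rose with LPS, 10 had a lower mean with 13-HDHEA and the median was -0.01. Cxcl10, an interferon-induced chemokine, differed by -0.23 (95% interval -0.65 to 0.20), and Cxcl14, a chemokine near background in these cells, by 0.18. Among 19 anti-inflammatory and feedback genes 12 were lower, with a median of -0.02. Il10, an anti-inflammatory cytokine, was 3.36, 3.27 and 3.52 with 13-HDHEA and 3.70, 3.65 and 3.54 with 16-HDHEA. The groups did not overlap, the level was dim in all of them, and the difference of -0.25 (-0.51 to 0.02) was not called. Bcl3, an atypical inhibitor of NF-kappaB, differed by 0.10.

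The genes that make, degrade or sense the isomers' own lipid class were not called either. Of 21 N-acyl ethanolamine and endocannabinoid genes tested, 12 had a lower mean with 13-HDHEA, and the median was -0.03. Gpr55, a receptor that responds to lysophosphatidylinositol and has been linked to cannabinoid ligands, had the smallest p of the list and was not called (limma adjusted p = 1.00). Its values were 4.25, 3.90 and 4.17 with 13-HDHEA and 3.68, 3.66 and 3.57 with 16-HDHEA, a difference of 0.46 (0.15 to 0.77). The 13-HDHEA arrays lay above all 16-HDHEA arrays, and the vehicle mean of 3.57 ± 0.156 lay at the 16-HDHEA level. Dagla, which makes the endocannabinoid 2-arachidonoylglycerol, differed by -0.36 (-0.82 to 0.10), with overlapping arrays. Cnr2, the cannabinoid receptor of immune cells, fell with LPS alone by 1.38 log2 units (limma adjusted p = 4.09e-07) and was 6.00, 5.79 and 6.10 against 5.87, 6.04 and 5.96 with the isomers, a difference of 0.01 (-0.23 to 0.24).

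Among 23 eicosanoid and oxylipin genes 16 had the lower mean with 13-HDHEA, at a median of -0.03. Ptgdr, a receptor for prostaglandin D, differed by -0.20 (-0.48 to 0.08), and Ltc4s, the leukotriene C synthase gene, by 0.17 (-0.11 to 0.44). Of 16 PPAR target and fatty acid oxidation genes 7 were lower, with a median of 0.02, and Cpt1a, which brings fatty acids into mitochondria, differed by 0.15 (-0.11 to 0.40) and Ppara, the fatty acid-sensing nuclear receptor, by 0.25 (-0.21 to 0.72).

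**Figure D5:**
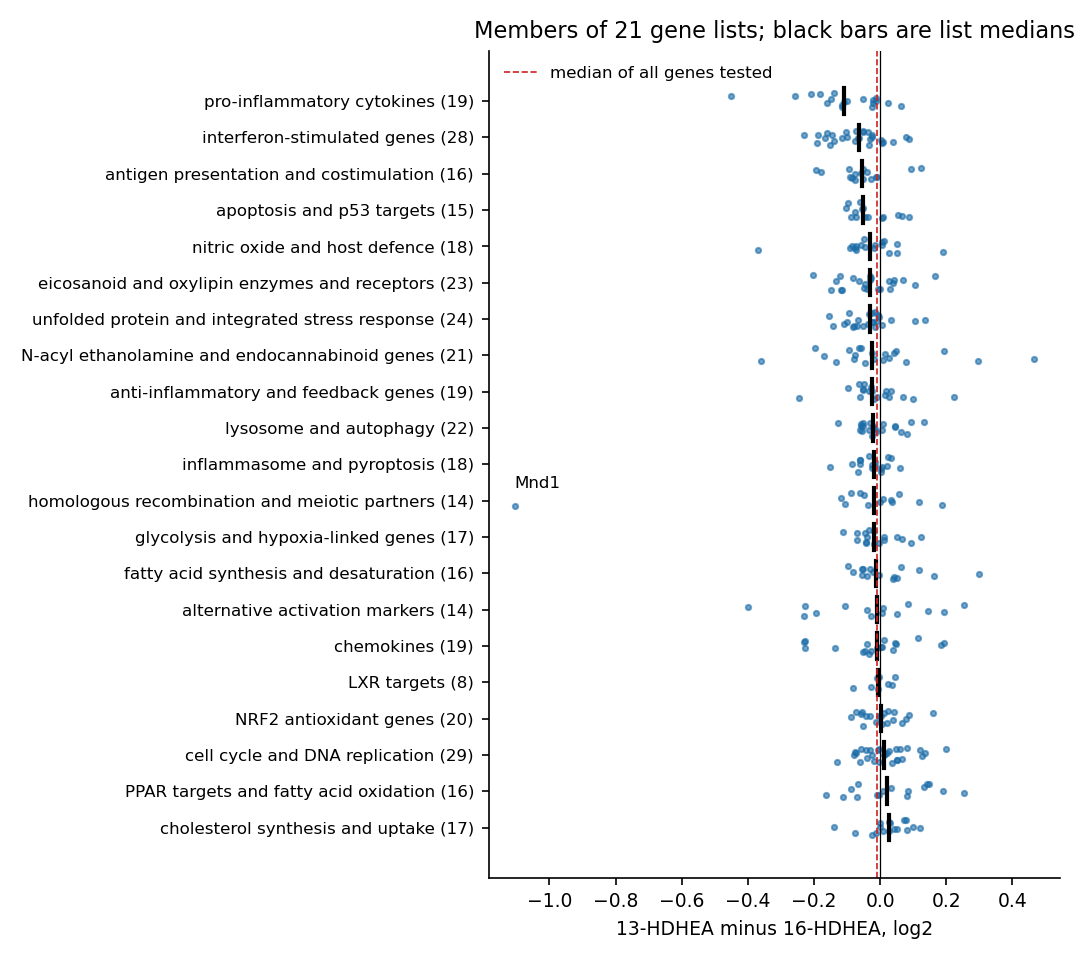
Difference between the isomers (13-HDHEA minus 16-HDHEA, log2, horizontal axis) for each tested member of 21 gene lists (number tested in brackets), with a black bar at the list median and a dashed red line at the median of all genes tested. List medians lie between -0.11 for pro-inflammatory cytokines and 0.03 for cholesterol synthesis and uptake, and Mnd1 stands apart at -1.11.

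The metabolic and stress lists lay near the median of all genes, and limma called none of their members. Of 17 cholesterol synthesis genes, 15 of which fell with LPS, 6 had a lower mean with 13-HDHEA, and the median was 0.03. Sc5d, an enzyme late in the pathway, differed by -0.14 and Lss, which closes the sterol ring, by 0.10. LXR targets, genes of sterol efflux, had a median of -0.01 over 8 genes, with Srebf1 at -0.08 and the transporter Abcg1 at 0.05. Fatty acid synthesis genes had a median of -0.01 over 16 genes, with Acacb at 0.30 (95% interval -0.08 to 0.68) and Fads3 at 0.16. Antioxidant genes controlled by NRF2 had a median of 0.00 over 20 genes, with Mgst1 at 0.16 and Srxn1 at 0.08. Glycolysis and hypoxia-linked genes had a median of -0.02 over 17 genes, with Pfkl at 0.12 and Pfkfb3 at -0.11.

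Unfolded protein and stress response genes were lower with 13-HDHEA in 20 of 24, by a median of only -0.03, and in 11 to 21 when 1 array was left out, with the median at 0.01 without replicate 2 of 16-HDHEA. Atf6, a sensor of unfolded protein, was 10.34, 10.34 and 10.27 against 10.60, 10.45 and 10.37, a difference of -0.15 (95% interval -0.32 to 0.02), and Atf5, a transcription factor of the stress response, differed by 0.14. Cell cycle genes, all 29 of which fell with LPS, had a lower mean with 13-HDHEA in 14 and a median of 0.01. Aspm, a spindle protein gene, differed by 0.20 and E2f1 by -0.13. Lysosome and autophagy genes had a median of -0.02 over 22 genes, with the calcium channel gene Mcoln1 at 0.13 and Gabarapl1 at -0.13.

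Nitric oxide and host defence genes had a median of -0.03 over 18 genes. Ass1, which regenerates arginine for nitric oxide synthesis, differed by -0.37 (-0.76 to 0.02), with 6.00, 6.11 and 5.85 against 6.77, 6.34 and 5.97. The gap was largest in experiment 1 and the arrays overlapped. Arg2, an arginase gene, differed by 0.19. Inflammasome genes had a median of -0.02 over 18 genes, with Nlrp1b at -0.15 and Casp1 at -0.09. Apoptosis and p53 target genes had a median of -0.05 over 15 genes, with Sesn1 and Mdm2 both at -0.10. Alternative activation markers had a median of -0.01 over 14 genes, with the lectin gene Clec10a at 0.25 and the transcription factor gene Klf4 at -0.40 (-1.03 to 0.23), the latter with a range of 4.38 to 5.34 within 13-HDHEA alone. Of the markers of other cell types, Dcn, a fibroblast gene, was named after its value was seen. It was 3.40, 3.53 and 3.68 with 13-HDHEA and 3.26, 3.13 and 3.31 with 16-HDHEA, near background and not called. Of the 8 fibroblast markers tested, 6 had a higher and 2 a lower mean with 13-HDHEA, at a median of 0.06.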

How the data were processed

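Log2 expression values were used as deposited by the authors. They were made with RMA (background correction, quantile normalization and median-polish summary of the probes of a probe set), per the submitters' processing notes. The RMA version was not given in the sources used here, nor was the chip definition. Of 41345 probe sets 25335 were listed with a gene, 23521 with 1 symbol and 1814 with several; 16010 were unlisted and unnamed. Of the 23521, 23328 matched RefSeq. The probe set with the highest mean over 15 arrays stood for a gene.

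Group means were fitted over all 15 arrays with limma 3.58.1 (lmFit and eBayes, R 4.3.3; 10 residual degrees of freedom), with Benjamini-Hochberg adjustment over 15468 genes. The script was tested on simulated data. The labels give 1 experiment for each replicate number, and deviations from the group means of same-numbered arrays correlated at 0.246, 0.166 and 0.278, so that the numbers pair the arrays. The fit with the experiment as a block was an alternative, beside other filters, normalizations, variance models and array subsets.

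The genes named were those called, up to 10 a direction ranked by p with the same sign in all 3 experiments, 2 of each of 21 lists by p, 14 genes always named, and the 5 largest rises and falls with LPS. A gene that the rule names for the homologous recombination list is not reported here. The 21 lists held 457 symbols, of which 385 were tested. Members and lists were chosen with earlier results of these data known. The number of arrays limits the precision: the median standard error of a difference was 0.126.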

Additional observations from a re-analysis of the deposited data

Results flagged for a closer look

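Mnd1 was singled out because the test of the difference between the isomers itself passed, at -1.11 on the log2 scale (limma adjusted p = 0.0102, lower with 13-HDHEA in 3 of 3 experiments). Its level with 13-HDHEA lay below the 40th percentile of every array of that group. Groups of 3 arrays are too small for the search for single outlying arrays.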

How the results depend on the processing

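The call count between the isomers was 0 with only the 6 isomer arrays, 0 with those arrays and the experiment as a block, 0 with every probe set of the array, and 0 to 1 when an array or an experiment was left out. Mnd1's limma adjusted p was 0.916 with the 6 arrays and the block, and 0.0677, 0.977 and 0.982 without experiments 1, 2 and 3. With the experiment as a block over all 15 arrays, 1 gene was called and 654 had an unadjusted p under 0.05. That number was 801 with the 6 arrays and the block, 238 with the 60th percentile filter (10795 genes tested) and 859 without a filter (22180 tested). The median absolute difference was 0.0799 to 0.0924 with an array or experiment left out. Against vehicle, 13-HDHEA gave 1 to 2 calls, with 2 only without LPS vehicle replicate 1. Over the 79 named genes, 1427 of 1485 alternative values kept direction and side of the threshold. The 10 that lost a call were all of Mnd1, and 48 values of 19 genes that were never called changed sign. The cause of these changes was not tested. Levels under the 40th percentile limit what a log2 difference can show.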

Other observations

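In 20 of the 15468 genes tested, all 3 arrays of 13-HDHEA and no array of 16-HDHEA lay above the array's 40th percentile. In 17 of the 15468, Mnd1 among them, the reverse held. The first set included Fgf7, a growth factor of epithelia, at 3.27 ± 0.0394 against 3.02 ± 0.145 (SD, n = 3), Ror2, a receptor of Wnt5a, at 3.33 ± 0.138 against 3.06 ± 0.118, and Col10a1, a collagen of growth plate cartilage, at 3.31 ± 0.0250 against 2.96 ± 0.198. The second included Npy5r, a neuropeptide Y receptor, at 3.11 ± 0.00514 against 3.42 ± 0.232, and Prg4, a lubricant of joints, at 3.16 ± 0.0247 against 3.22 ± 0.0284. These 5 genes were named after their values were seen, and of all 37 limma called only Mnd1. The means of the 5 genes lie near the 40th percentile (3.16 to 3.22), and Prg4 differed by only -0.05. Crossing that level therefore does not show expression with 1 isomer only.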
